A study of Mus musculus with 18 samples.

Results

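The genes described here encode the ion pumps, ion channels and water channels of the mouse kidney. They were taken as every probe of the array whose single annotated gene symbol began with Atp1a, Atp1b, Atp2a, Atp2b, Atp2c, Atp6, Kcn, Clcn, Aqp, Scnn or Cacn. Of 16128 probes, 48 met this rule, and they stood for 39 genes. A value on 6 or more of the 18 arrays was required, which left 36 genes of the 6821 genes with a single symbol and that many values. They were 13 subunits of the vacuolar proton pump (V-ATPase), 6 subunits of cation pumps and 17 channels or chloride transporters. No probe with a single symbol carried an aquaporin, an epithelial sodium channel (Scnn) or a catalytic subunit of the sodium pump (Atp1a), so these families had 0 members and are not described. Cacna2d1 had a value on 3 arrays, Kcnh1 on 5 and Kcne3 on 0, and these 3 genes were left out.

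Kidneys of CD1 mice, an outbred strain, were compared after housing from postnatal day 2 under constant hypoxia, intermittent hypoxia or normoxia for 1, 2 or 4 weeks. Oxygen was held at 11% in constant hypoxia, it alternated between 11% and 21% every 4 minutes in intermittent hypoxia, and normoxia was ordinary air. Each of the 9 groups had 2 cDNA arrays, called A and B, with different animals on each. Every array set Cy5-labelled kidney cDNA of a mouse labelled male beside Cy3-labelled cDNA of a mouse labelled female of the same group. The dyes were not swapped, so a difference between the animals and a difference between the dyes cannot be told apart. The deposited value of a probe is 1 ratio per array on a log scale, read as log2 from the values themselves, and no source used here gives its base or its direction. Each sign below is the deposited sign and is not assigned to male or female. A difference between conditions is therefore a difference in this within-pair ratio, and a change shared by both animals of a pair would leave it unaltered. Because only ratios were used, no level of any gene, and no defining marker of the kidney, could be read in any animal.

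The V-ATPase is a rotary pump that uses ATP in its cytosolic V1 sector to drive protons through its membrane V0 sector. It acidifies endosomes and lysosomes in all cells, and in the kidney it also sits in the plasma membrane of intercalated cells of the collecting duct, which secrete acid. The sodium pump and the calcium pumps set the cation gradients on which tubular transport rests, and potassium and chloride channels return ions across the same membranes. Aquaporins carry the water that follows.

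Ratios were centred on the median of each array before any comparison, because the deposited medians ran from -1.13 to -0.18 in constant hypoxia, from -0.12 to 0.0090 in intermittent hypoxia and from -0.15 to 0.098 in normoxia. Tests ran on 5751 features with a value on at least 15 arrays and in every group, and 21 of the 36 genes were among them (10 V-ATPase subunits, 4 pump subunits and 7 channels or chloride transporters). On 2 arrays a label went against the title: for intermittent hypoxia 2 weeks A the female is named as one of 1 week, and the treatment given for channel 2 of constant hypoxia 4 weeks A lasts 2 weeks. Array constant hypoxia 4 weeks A also stood apart by position: the running median of ratios in the order of the probe numbers reached -3.06 there, against no lower than -0.99 on any other array. Array intermittent hypoxia 2 weeks B had the widest spread of ratios, with an interquartile range of 0.88 log2 units, against 0.31 to 0.72 on the others. Each group held only 2 arrays, and over all features a condition difference averaged over durations had a median standard error of 0.17 log2 units. Different animals on each array are what the labels give. The spread behind the p-values thus holds differences between pairs of animals and between hybridisations, which cannot be told apart. It was estimated over all 9 groups together.

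**Figure D1:**
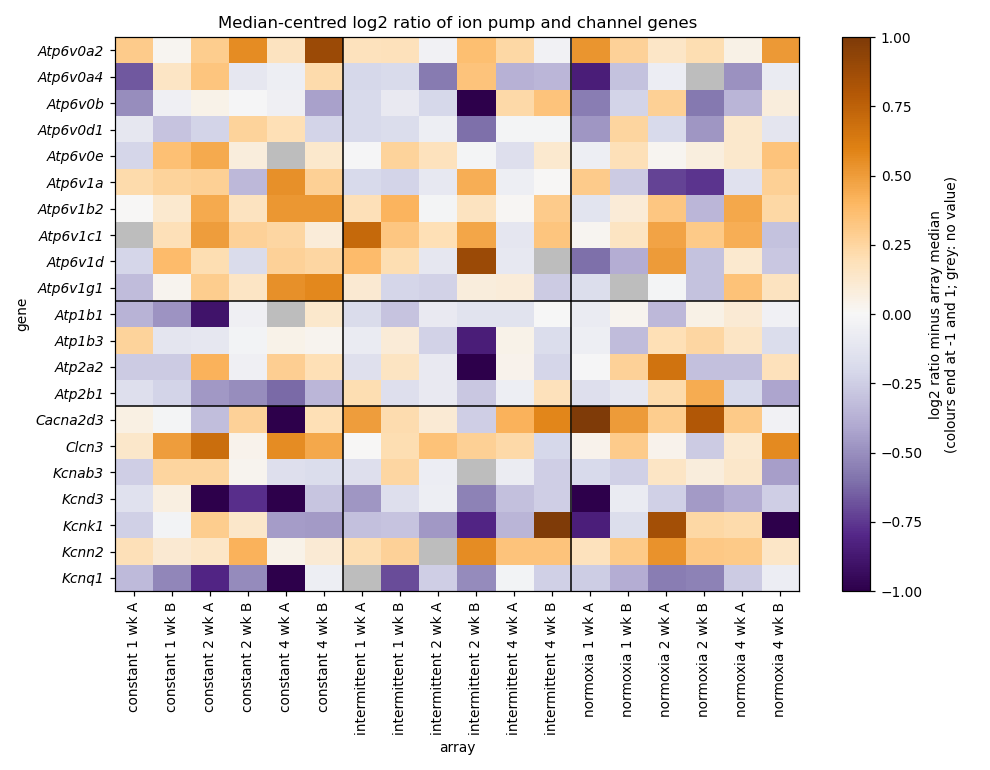
Median-centred log2 ratio (colour) of the 21 tested genes (rows of the map, grouped as V-ATPase subunits, cation pumps, then channels and chloride transporters) on the 18 arrays (across), with constant hypoxia, intermittent hypoxia and normoxia from left to right. Kcnn2 is positive on all 17 arrays with a value, Kcnq1 is negative on all 17, and single dark cells of Atp6v0b and Atp2a2 fall on intermittent hypoxia 2 weeks B.

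The 5 tested subunits of the V1 sector were the catalytic A subunit Atp6v1a, the nucleotide-binding B2 subunit Atp6v1b2, the C subunit Atp6v1c1 that takes part in joining V1 to V0, the rotor subunit Atp6v1d and the stalk subunit Atp6v1g1. In constant hypoxia, Atp6v1a ratios were 0.22 and 0.26 at 1 week, 0.28 and -0.34 at 2 weeks, and 0.54 and 0.28 at 4 weeks. In intermittent hypoxia they were -0.20 and -0.23 at 1 week, -0.097 and 0.43 at 2 weeks, and -0.057 and 0.0013 at 4 weeks. In normoxia they were 0.30 and -0.26 at 1 week, -0.72 and -0.76 at 2 weeks, and -0.15 and 0.27 at 4 weeks. The 5 constant hypoxia arrays other than 2 weeks B were positive, the lowest values of the gene were the 2 normoxia arrays of 2 weeks, and the conditions overlapped. The means were 0.21 ± 0.29 in constant hypoxia, -0.025 ± 0.24 in intermittent hypoxia and -0.22 ± 0.46 in normoxia (SD, n = 6 each). The difference between constant hypoxia and normoxia was 0.43 with a standard error of 0.16, and it did not pass the test (limma with Benjamini-Hochberg adjustment, adjusted p = 0.647).

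Atp6v1g1 averaged 0.21 ± 0.34 in constant hypoxia (n = 6), -0.070 ± 0.18 in intermittent hypoxia (n = 6) and 0.0050 ± 0.26 in normoxia (n = 5, all SD). Its constant hypoxia ratios were -0.32 and 0.029 at 1 week, 0.30 and 0.16 at 2 weeks, and 0.54 and 0.57 at 4 weeks, so both 4-week arrays lay above both 1-week arrays. Atp6v1b2 was positive on all 6 constant hypoxia arrays, 5 of 6 intermittent hypoxia arrays and 4 of 6 normoxia arrays, with means of 0.30 ± 0.23, 0.18 ± 0.16 and 0.11 ± 0.30 (SD). Atp6v1c1 was positive on 15 of 17 arrays, with means of 0.26 ± 0.15 in constant hypoxia (n = 5), 0.32 ± 0.28 in intermittent hypoxia (n = 6) and 0.18 ± 0.29 in normoxia (n = 6). Atp6v1d ranged from -0.60 on normoxia 1 week A to 0.88 on intermittent hypoxia 2 weeks B, with means of 0.12 ± 0.25 in constant hypoxia (n = 6), 0.25 ± 0.41 in intermittent hypoxia (n = 5) and -0.16 ± 0.40 in normoxia (n = 6, all SD).

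Of the 5 tested V0 subunits, Atp6v0a2, an isoform of the membrane a subunit found on Golgi and endosomes, was positive on 16 of 18 arrays, and on 9 of 18 after removal of the running median of neighbouring probe numbers. Its ratio ranged from 0.0195 to 0.88 with a median of 0.30 in constant hypoxia, from -0.036 to 0.36 with a median of 0.18 in intermittent hypoxia, and from 0.053 to 0.53 with a median of 0.24 in normoxia. The ranges overlapped, with 2 constant hypoxia arrays above all arrays of the other conditions. Atp6v0a4, the a-subunit isoform of intercalated cells, ran the other way, negative on 13 of 17 arrays and on all 5 normoxia arrays with a value. Its lowest ratios were -0.84 on normoxia 1 week A and -0.67 on constant hypoxia 1 week A, and its highest were 0.34 on intermittent hypoxia 2 weeks B and 0.33 on constant hypoxia 2 weeks A.

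Atp6v0d1, which couples the rotor to the membrane ring, was negative on all 6 intermittent hypoxia arrays, from -0.60 to -0.016. Atp6v0e, a small membrane subunit, had the narrowest spread of the 10 tested subunits, with an SD of 0.18 over 17 arrays. Atp6v0b, which encodes a proton-carrying proteolipid of the ring, lay between -0.58 and 0.34 on 17 arrays and at -1.66 on intermittent hypoxia 2 weeks B.

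All 10 subunits had a higher mean ratio in constant hypoxia than in normoxia, by 0.039 (Atp6v0e) to 0.43 (Atp6v1a), with a median difference of 0.14. Over all 5751 features the median difference was -0.037 and 43.1% of features were positive. None of the 10 differences passed the test. On the values as deposited, without centring, all 10 were negative with a median of -0.63, and so were nearly all features, of which 0.0522% were positive. When each of the 12 arrays in the comparison was left out in turn, all 10 differences stayed positive for 3 of them, and the lowest count was 7 of 9. With the running median along the probe numbers removed the count was 7 of 10 and the median 0.10, and it was 9 of 10 when intermittent hypoxia 2 weeks B and constant hypoxia 4 weeks A were both left out. In intermittent hypoxia the subunits did not lean one way against normoxia, with 5 of 10 higher and a median difference of 0.019, beside 53% of features higher and a median of 0.014. Between intermittent and constant hypoxia, 2 of 10 were higher and the median difference was -0.12, beside 59.8% of features higher and a median of 0.060. All 3 comparisons share arrays. By duration, 8 of 10 subunits were higher in constant hypoxia than in normoxia at 1 week, 8 at 2 weeks and 7 at 4 weeks, and in intermittent hypoxia 7, 6 and 2 were.

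The V1 median lay above the V0 median on 6 of 6 constant hypoxia arrays, 4 of 6 intermittent hypoxia arrays and 4 of 6 normoxia arrays, a split of the pump that was looked at after the values were seen. The gap between the sectors was widest on constant hypoxia 4 weeks A at 0.46 and intermittent hypoxia 2 weeks B at 0.45, and it was most negative on normoxia 1 week B at -0.27. After removal of the running median the counts were 5 of 6, 6 of 6 and 4 of 6 in the same order. The gap was given no test.

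Among the pump subunits, Atp2b1, which encodes the plasma membrane calcium pump PMCA1, showed the most regular pattern. Its ratios in constant hypoxia were -0.16 and -0.23 at 1 week, -0.46 and -0.50 at 2 weeks, and -0.62 and -0.34 at 4 weeks. In intermittent hypoxia they were 0.21 and -0.16 at 1 week, -0.087 and -0.28 at 2 weeks, and -0.055 and 0.19 at 4 weeks. In normoxia they were -0.16 and -0.10 at 1 week, 0.22 and 0.44 at 2 weeks, and -0.20 and -0.42 at 4 weeks. All 6 constant hypoxia arrays were negative, yet the 4-week normoxia arrays reached the same values, and arrays of the same group differed little (a within-group SD of 0.15, lower than for all but 5.16% of features). The difference between constant hypoxia and normoxia was -0.35 with a standard error of 0.12, and that between intermittent and constant hypoxia was 0.36 with the same standard error. By limma with Benjamini-Hochberg adjustment neither passed, with adjusted p = 0.647 for the first and adjusted p = 0.393 for the second, and the constant hypoxia arrays are in both. After removal of the running median these differences were -0.17 and 0.17 (limma, adjusted p = 0.677 and adjusted p = 0.559).

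The mean ratio of Atp2b1 in constant hypoxia, -0.39 ± 0.18 (SD, n = 6), did differ from the median feature in limma's test after Benjamini-Hochberg adjustment (adjusted p = 0.0126). Without constant hypoxia 4 weeks A it was -0.34 and just missed the threshold (limma, adjusted p = 0.0578). With the running median of neighbouring probe numbers removed it came to -0.14 and no longer passed (limma, adjusted p = 0.339).

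Atp1b1 encodes the beta1 subunit of the sodium pump, which the catalytic subunit needs to reach the membrane. It was negative on 4 of 5 constant hypoxia arrays with a value and on all 6 intermittent hypoxia arrays, and split 3 and 3 in normoxia, with means of -0.33 ± 0.39, -0.14 ± 0.096 and -0.046 ± 0.16 (SD). The lowest value, -0.89, came from constant hypoxia 2 weeks A. Atp1b3, the beta3 subunit, averaged 0.011 ± 0.14 in constant hypoxia, -0.20 ± 0.34 in intermittent hypoxia and 0.0058 ± 0.23 in normoxia (SD, n = 6 each). Atp2a2, the calcium pump of the endoplasmic reticulum (SERCA2), averaged 0.055 ± 0.29, -0.30 ± 0.62 and 0.083 ± 0.38 in the same order. Both intermittent hypoxia means turned on array 2 weeks B, with -0.85 for Atp1b3 and -1.53 for Atp2a2. Without that array the difference from normoxia was -0.10 for Atp1b3, against -0.21 with it, and -0.14 for Atp2a2, against -0.38 with it. The median difference of the 4 pump subunits from normoxia was -0.12 in constant hypoxia and -0.15 in intermittent hypoxia, with 3 of 4 negative in each.

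**Figure D2:**
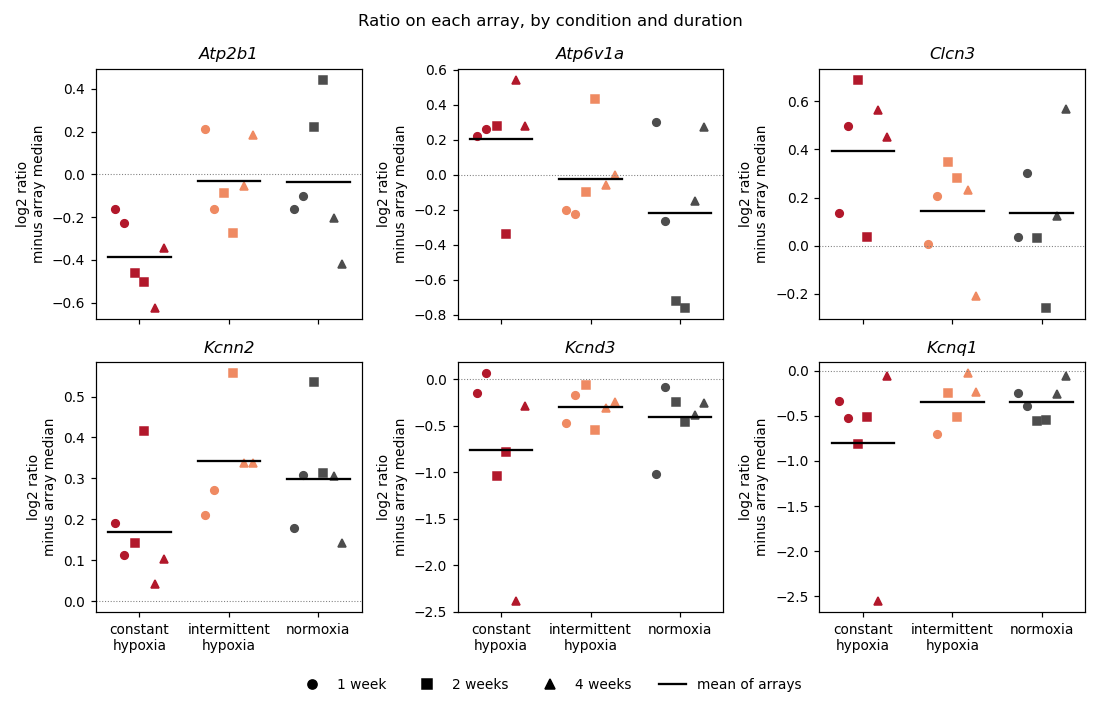
Median-centred log2 ratio (vertical axis, a scale per panel) of 6 genes on every array, by condition (horizontal axis); symbols mark the duration and bars the mean of the arrays. Atp2b1 is negative on all 6 constant hypoxia arrays, Kcnn2 is positive on every array, and 1 constant hypoxia array of 4 weeks lies below -2 in Kcnd3 and Kcnq1.

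A ratio with at most 1 array of the other sign was found for 3 tested genes, beside 8.83% of features. All 3 were channels, Kcnn2, Kcnq1 and Kcnd3. After removal of the running median 2 tested genes met this, beside 4.42% of features. These were Kcnn2 and the V-ATPase subunit Atp6v0a4. Kcnn2 encodes SK2, a potassium channel opened by intracellular calcium. Its ratio in constant hypoxia was 0.19 and 0.11 at 1 week, 0.14 and 0.42 at 2 weeks, and 0.041 and 0.10 at 4 weeks. In intermittent hypoxia it was 0.21 and 0.27 at 1 week, 0.56 on the 1 array of 2 weeks with a value, and 0.34 on both arrays of 4 weeks. In normoxia it was 0.18 and 0.31 at 1 week, 0.54 and 0.31 at 2 weeks, and 0.31 and 0.14 at 4 weeks. All 17 values were positive, and their SD of 0.15 was smaller than that of all but 0.869% of features. Once the running median was taken off, 16 of 17 were positive.

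Averaged over 1, 2 and 4 weeks, the ratio of Kcnn2 differed from the median feature in intermittent hypoxia, at 0.38 with a standard error of 0.095 (limma, Benjamini-Hochberg adjusted p = 0.0367). The 2-week part of this average was the single value 0.56 on array 2 weeks B, the array of widest spread. The plain mean of the 5 values was 0.34. The same average was 0.17 with a standard error of 0.082 in constant hypoxia (limma, adjusted p = 0.160) and 0.30 with a standard error of 0.082 in normoxia (limma, adjusted p = 0.0616). The conditions did not differ by limma's test: intermittent hypoxia minus normoxia was 0.081, with a 95% interval from -0.19 to 0.35, and constant hypoxia minus normoxia was -0.13, from -0.38 to 0.12. A 1-signed ratio on all arrays with a value was found for 2.54% of the 5751 features, and for 2 of the 21 genes.

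Kcnq1, the pore subunit of a voltage-gated potassium channel of the proximal tubule and heart, was the other, negative on all 17 arrays. In constant hypoxia its ratios were -0.33 and -0.53 at 1 week, -0.81 and -0.51 at 2 weeks, and -2.55 and -0.055 at 4 weeks. In intermittent hypoxia they were -0.70 on the 1 array of 1 week with a value, -0.25 and -0.51 at 2 weeks, and -0.028 and -0.24 at 4 weeks. In normoxia they were -0.25 and -0.39 at 1 week, -0.56 and -0.54 at 2 weeks, and -0.26 and -0.064 at 4 weeks. Apart from -2.55 on constant hypoxia 4 weeks A the conditions overlapped. Kcnd3, which encodes Kv4.3, a channel of fast inactivating potassium currents, was negative on 17 of 18 arrays, from -2.38 to 0.067 in constant hypoxia, -0.55 to -0.062 in intermittent hypoxia and -1.01 to -0.080 in normoxia. The exception was constant hypoxia 1 week B.

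Both ratios passed the test in constant hypoxia, at -0.80 with a standard error of 0.21 for Kcnq1 (limma with Benjamini-Hochberg adjustment, adjusted p = 0.0252) and -0.76 with a standard error of 0.20 for Kcnd3 (adjusted p = 0.0208). Both moved with the position of the probes. Their probe numbers, 16111 and 14967 of 16128, lie near the end of the list, and so does that of Cacna2d3, 15332. On constant hypoxia 4 weeks A the running median of the surrounding probes was -2.64 at Kcnq1, -2.57 at Kcnd3 and -2.04 at Cacna2d3, and the genes' own ratios there were -2.55, -2.38 and -2.06. With the running median removed on every array, the mean ratio in constant hypoxia was -0.0094 for Kcnq1 and 0.013 for Kcnd3. Neither was past the test. Kcnq1 was then negative on 8 of 17 arrays and Kcnd3 on 13 of 18. Without constant hypoxia 4 weeks A alone the mean was -0.38 for Kcnq1, still past the test (limma, adjusted p = 0.0413), and -0.41 for Kcnd3, no longer past it (limma, adjusted p = 0.0692). Of 8 listed markers of red blood cells 3 were measured, and they did not move together on that array. Hbb-b1 had -4.08 there, against -1.41 to -0.60 on the 4 other constant hypoxia arrays with a value, and Tfrc had -2.19, against -0.26 to 0.10 on the other 5. Slc4a1 had -0.030, the highest of the 6, against -0.58 to -0.054. With the running median removed, the values on that array were -1.13 for Hbb-b1, 0.088 for Tfrc and 0.37 for Slc4a1. The summed level of the 3 could not be read from ratios, and their part in the result was not tested.

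**Figure D3:**
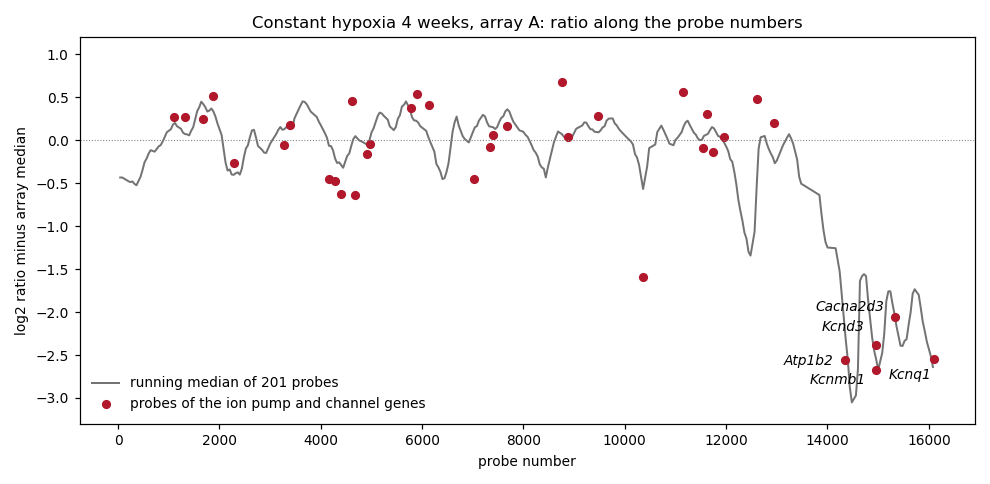
Median-centred log2 ratio (vertical axis) of the members' probes on array constant hypoxia 4 weeks A, by probe number (horizontal axis), with the running median of neighbouring probes as a line. The 5 labelled genes, at probe numbers 14337 to 16111, lie between -2.67 and -2.06, close to the running median of their neighbours.

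Cacna2d3 encodes an auxiliary alpha2delta subunit of voltage-gated calcium channels. In constant hypoxia it ranged from -2.06 to 0.27 with a median of 0.0185, in intermittent hypoxia from -0.25 to 0.58 with a median of 0.31, and in normoxia from -0.036 to 1.02 with a median of 0.40. Normoxia 1 week A had the highest ratio, and all 3 ranges overlapped. The difference between constant hypoxia and normoxia was -0.79 with a standard error of 0.29 (limma, Benjamini-Hochberg adjusted p = 0.647). Without constant hypoxia 4 weeks A it was -0.42, and with the running median removed it was also -0.42 (limma, adjusted p = 0.435). With that running median removed, the normoxia ratio itself passed, at 0.54 (limma, adjusted p = 0.0129).

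Clcn3 encodes ClC-3, a chloride-proton exchanger of endosomes. Its ratios in constant hypoxia were 0.13 and 0.50 at 1 week, 0.69 and 0.035 at 2 weeks, and 0.56 and 0.45 at 4 weeks. In intermittent hypoxia they ranged from -0.21 to 0.35 with a median of 0.22, and in normoxia from -0.26 to 0.57 with a median of 0.080. All 6 constant hypoxia arrays were positive, 4 of them above every intermittent hypoxia array, while 1 normoxia array reached 0.57. The mean in constant hypoxia was 0.40 ± 0.26 (SD, n = 6) and passed against the median feature (limma with Benjamini-Hochberg adjustment, adjusted p = 0.0257), and it was 0.22 with the running median removed (limma, adjusted p = 0.226). Its difference from normoxia was 0.26 with a standard error of 0.15 (limma, adjusted p = 0.660).

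Kcnk1 encodes TWIK-1, a background potassium channel, and had the widest spread of the 21 genes, with an SD of 0.69 that exceeded that of 97.3% of features. It reached 1.53 on intermittent hypoxia 4 weeks B and -1.66 on normoxia 4 weeks B, and the A arrays of the same groups had -0.35 and 0.23. It is named because of this spread, after its values were seen. Kcnab3, a regulatory beta subunit of voltage-gated potassium channels, stayed within -0.44 and 0.26 on 17 arrays.

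Counted over the 21 genes, 5 had a mean ratio in constant hypoxia that differed from the median feature, against 18.3% of all 5751 features (limma, adjusted p under 0.05). Clcn3 and Atp6v0a2 were the 2 positive ones (0.40 and 0.37), beside 5.01% of features, and Atp2b1, Kcnd3 and Kcnq1 the 3 negative ones (-0.39, -0.76 and -0.80), beside 13.2%. Before adjustment 7 of 21 passed, beside 35.7%. With the running median removed none of the 21 passed, beside 2.71% of features. Single arrays moved the calls of these genes and of all features. Without constant hypoxia 4 weeks B, array 4 weeks A stood alone for its group. The mean ratio was then -1.11 for Kcnd3, -1.21 for Kcnq1, -0.43 for Atp2b1, 0.41 for Clcn3 and 0.25 for Atp6v0a2. That fit called a larger share of all features than the fits without any other constant hypoxia array. Its calls are not read as results about these genes. The 21 genes had 0 calls without constant hypoxia 1 week B, beside 0.106% of features, and 0 without 2 weeks A, beside 3.82%. Clcn3 was the 1 call without 2 weeks B, beside 6.04%. There were 2 calls without 1 week A (Atp2b1 and Clcn3), beside 8.73%, and 2 without 4 weeks A (Kcnq1 and Atp6v0a2), beside 8.12%. Of the 5 genes, Kcnd3 kept its call in 1 of these 6 fits and Atp6v0a2 in 1, Atp2b1 and Kcnq1 in 2 each, and Clcn3 in 3. In intermittent hypoxia Kcnn2 was the 1 gene of 21 that passed, beside 5.79% of features, and 2 passed before adjustment, beside 24.6%. Its call was lost without any 1 of the 4 constant hypoxia arrays of 1 and 2 weeks or of the intermittent hypoxia arrays of 1 and 4 weeks. Intermittent hypoxia 2 weeks B held the only value of Kcnn2 in its group, so without that array the ratio could not be tested. In normoxia 0 of 21 passed, beside 3.53%, and before adjustment 3 passed (Kcnn2, Atp6v0a2 and Cacna2d3), beside 21.7%. As shares of the 21 genes, these counts were 23.8% in constant hypoxia, 4.76% in intermittent hypoxia and 0% in normoxia, near those of all features.

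Atp6v0a4 stood out only after the running median was removed, and is described here for that reason. Its ratio was then negative on all 17 arrays with a value, with means of -0.21 in constant hypoxia, -0.46 in intermittent hypoxia and -0.49 in normoxia. The last 2 means passed limma's test after Benjamini-Hochberg adjustment (adjusted p = 0.0119 in intermittent hypoxia, adjusted p = 0.0239 in normoxia), and beside them 8.35% and 4.56% of features were called under this setting. A second probe of the gene, with values on 7 arrays and not used in the tests, had means of 0.25 in constant hypoxia, 0.071 in intermittent hypoxia and 0.24 in normoxia, and its sign matched the first probe's on 3 of the 7 arrays.

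The question the design puts most directly, whether either form of hypoxia alters these ratios, was answered with 0 of 21 genes called in each of the 3 comparisons averaged over durations (limma with Benjamini-Hochberg adjustment). In constant hypoxia minus normoxia 0% of all features were called, and before adjustment 3 of 21 genes (Atp2b1, Cacna2d3 and Atp6v1a) passed, beside 7.53% of features. In intermittent hypoxia minus normoxia 0% of features were called, and before adjustment 0 of 21 genes passed, beside 4.12% of features. In intermittent minus constant hypoxia 0.0348% of features were called, and before adjustment 1 of 21 genes (Atp2b1) passed, beside 11.4%. No gene had arrays of 2 conditions that did not overlap, which was found for 0.104%, 0.209% and 0.661% of features in the 3 comparisons.

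**Figure D4:**
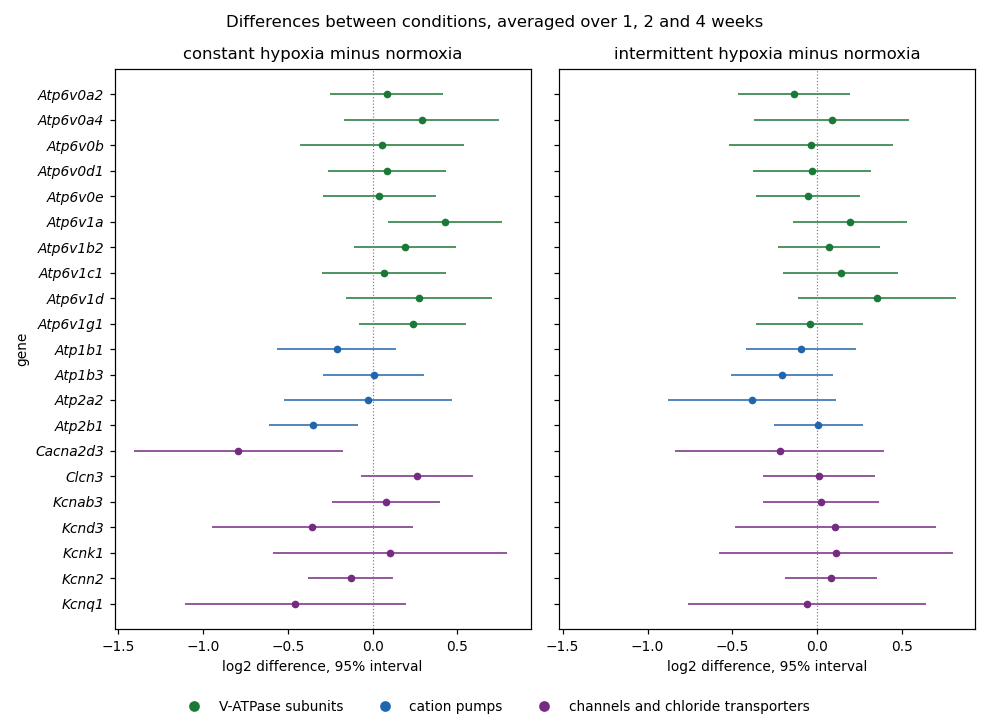
Difference in mean log2 ratio (horizontal axis, points) with its 95% interval (bars) for the 21 tested genes (vertical axis, coloured by family), constant hypoxia minus normoxia on the left and intermittent hypoxia minus normoxia on the right. All 10 V-ATPase subunits lie to the right of 0 in the left panel, 5 of 10 in the right panel, and most intervals cross 0.

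The width of these intervals sets what could be seen. For the best measured gene, Kcnn2, a difference between constant hypoxia and normoxia beyond 0.38 in size lay outside the 95% interval, and for Kcnk1 the interval ran from -0.58 to 0.79. For Atp6v1a it ran from 0.092 to 0.76 and for Atp2b1 from -0.61 to -0.085, intervals that carry no adjustment for the number of features.

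Within single durations 0 of 21 genes were called in any of the 6 comparisons with normoxia (limma, Benjamini-Hochberg), beside 0% of features for both regimes at 1 week, 0.0174% for constant and 0.0869% for intermittent hypoxia at 2 weeks, and 0.0348% for constant and 0% for intermittent hypoxia at 4 weeks. At 1 week, 0 genes passed before adjustment in constant hypoxia, beside 2.47% of features, and 1 in intermittent hypoxia (Atp6v1d, 0.79), beside 2.9%. At 2 weeks, 2 passed before adjustment in constant hypoxia, beside 10.2%: Atp2b1 at -0.81 and Atp6v1a at 0.71. In intermittent hypoxia at 2 weeks 4 passed, beside 12.4%: Atp6v1a at 0.91, Atp2b1 at -0.51, Atp1b3 at -0.76 and Atp2a2 at -0.996. Without intermittent hypoxia 2 weeks B the same differences were 0.64, -0.42, -0.45 and -0.27. On that array the 2 probes averaged for Atp6v1a disagreed, at 0.96 and -0.092. Both differences of Atp2b1 and Atp6v1a at 2 weeks share the same 2 normoxia arrays, which held the highest Atp2b1 ratios and the lowest Atp6v1a ratios of the study. At 4 weeks 1 gene passed before adjustment in constant hypoxia (Kcnq1, -1.14), beside 6.9%, and 1 in intermittent hypoxia (Kcnk1, 1.31), beside 8.73%. In both the 2 arrays of the hypoxia group lay far apart, at -2.55 and -0.055 for Kcnq1 and at -0.35 and 1.53 for Kcnk1. The difference of Kcnq1 was 0.11 without constant hypoxia 4 weeks A.

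Without intermittent hypoxia 2 weeks A, the array with the conflicting label, 4 genes were called in intermittent hypoxia minus normoxia at 2 weeks, where 12.8% of features then were. They were Atp2a2 (-1.72), Atp6v0b (-1.51), Atp1b3 (-1.07) and Atp6v1a (1.17), and the group was then the single array 2 weeks B, whose spread was assumed to be like that of the other groups. Without constant hypoxia 4 weeks B, Kcnd3, Cacna2d3 and Kcnq1 were called in constant hypoxia minus normoxia, at -0.71, -1.168 and -0.87, and 10.6% of features were. That group was then represented by array 4 weeks A alone.

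Duration was compared as 4 weeks minus 1 week. In normoxia, 0 of 21 genes were called, beside 0% of features, and 0 passed before adjustment, beside 8.54%. The V-ATPase subunits had a median change of 0.21 with 8 of 10 positive, led by Atp6v1g1 (0.43), Atp6v1d (0.42) and Atp6v1b2 (0.37), while 47.3% of all features were positive with a median of -0.022. In constant hypoxia 0 were called, beside 0%, and 2 passed before adjustment, beside 10.2%: Atp6v1g1 at 0.70 and Kcnd3 at -1.30. There the V-ATPase median was 0.18 with 9 of 10 positive, and the channel median was -0.32 with 6 of 7 negative, beside 43% of all features positive with a median of -0.053. Without constant hypoxia 4 weeks A these medians were 0.11 with 7 of 10 positive and -0.047 with 4 of 7 negative. In intermittent hypoxia 0 were called, beside 0%, and 0 passed before adjustment, beside 2.66%, and the V-ATPase median was -0.11 with 3 of 10 positive, beside 49% of features. After removal of the running median, the constant hypoxia change was -0.025 for Kcnd3, 0.39 for Atp6v1g1 and -0.025 for the channel median, with 4 of 7 negative. The V-ATPase subunits were then positive for 8 of 10 in normoxia, 9 of 10 in constant hypoxia and 7 of 10 in intermittent hypoxia.

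The change with duration was not shown to differ between hypoxia and normoxia. For constant hypoxia minus normoxia 0 genes were called, beside 0%, and 1 passed before adjustment (Kcnd3, -1.52), beside 3.48%. That value was -0.47 without constant hypoxia 4 weeks A. For intermittent hypoxia minus normoxia 0 were called, beside 0%, and 0 passed before adjustment, beside 8.35%. For 2 weeks against 1 week and 4 weeks against 2 weeks 0 genes and 0 features were called in either regime (limma, Benjamini-Hochberg). Before adjustment, 1 gene and 0 genes passed in constant hypoxia, beside 4.97% and 6.16% of features, and 3 and 4 in intermittent hypoxia, beside 8.66% and 13.2%.

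The other 15 genes had too few values for the tests and are described by their values alone. Of the possible values of these genes, 90% were present on constant hypoxia arrays, against 33.3% in intermittent hypoxia and 43.3% in normoxia. The sign of the values also differed between the conditions. In constant hypoxia 37 of 81 values (45.7%) were above 0 with a median of -0.056, in intermittent hypoxia 24 of 30 (80%) with a median of 0.18, and in normoxia 31 of 39 (79.5%) with a median of 0.44. Over all 2712 genes that had 6 or more arrays and stayed out of the tests, 50.6% of values were positive in constant hypoxia, 64.9% in intermittent hypoxia and 61% in normoxia. The part of this uneven coverage in the values below was not tested, and no condition means are compared for these genes.

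Clcn5 encodes the endosomal exchanger of the proximal tubule that is mutated in human Dent disease. It had ratios from -0.081 to 0.49 on the 6 constant hypoxia arrays, 1.21 and 0.48 on 2 intermittent hypoxia arrays, and 1.45, 1.15 and 1.12 on 3 normoxia arrays. All 3 normoxia values lay above all 6 constant hypoxia values, and the other 3 normoxia arrays had none. Of the 486 genes outside the tests with 6 constant hypoxia and 3 normoxia values, 6.79% did the same and 0% the reverse. The 3 members among them (Clcn5, Kcnmb1 and Kcns3) all did so, a count made after their values were seen. Clcn7, the exchanger of lysosomes, was present more often and showed no such split, with 0.080 to 0.55 on 6 constant hypoxia arrays, -0.033 to 0.31 on 3 intermittent hypoxia arrays and 0.28 to 0.87 on 4 normoxia arrays.

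Among the V-ATPase subunits outside the tests, Atp6v0a1, another isoform of the a subunit, held the highest ratio of all members, 4.31 on normoxia 1 week B, with 1.71 on its partner array A. It had 1.56 on its single intermittent hypoxia array and -0.91 to 1.45 on the 6 constant hypoxia arrays. Atp6v1e1, a stalk subunit, was the reverse in coverage, with no value on any constant hypoxia array. Its ratio ran from -0.26 to 0.33 in intermittent hypoxia and from -0.16 to 0.44 in normoxia, with 6 values in each. Atp6v1h, a regulator of the pump, ranged from -0.79 to 0.23 on 6 arrays and had no value in normoxia.

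Of the 2 remaining pump subunits, Atp1b2, the beta2 subunit of the sodium pump, ranged from -2.56 to 0.074 on 6 constant hypoxia arrays, with 0.79 on 1 intermittent hypoxia array and 0.71 and -0.63 on 2 normoxia arrays. Its lowest value fell on constant hypoxia 4 weeks A, where the running median at its probe was -2.19. Atp2c2, a calcium and manganese pump of the secretory pathway, was negative on all 6 constant hypoxia arrays, from -0.61 to -0.20, and had 1.76 and -0.34 on its 2 normoxia arrays.

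The 7 potassium channel genes outside the tests, and the L-type calcium channel pore Cacna1d, spread over both signs. Kcng1 and Kcns3, silent subunits that modify other voltage-gated channels, lay between -0.33 and 0.75 and between -0.45 and 1.12, and the 3 normoxia values of Kcns3 (0.86 to 1.12) lay above its 6 constant hypoxia values (-0.45 to 0.31). Kcnh3, of the ether-a-go-go family, lay between -0.26 and 1.02, Kcnj12, an inward rectifier, between -0.23 and 0.59, and Kcnd2, the pore Kv4.2, between -0.48 and 0.37. Kcnk6, the background channel TWIK-2, was negative on all 6 constant hypoxia arrays, from -0.92 to -0.21, and had 1.13 on 1 intermittent hypoxia array and 0.86 on 1 normoxia array. Kcnmb1, the smooth muscle subunit of the large-conductance calcium-activated channel, was likewise negative on all 6 constant hypoxia arrays, with -2.67 on 4 weeks A and -0.71 to -0.24 on the others, and had 1.24, 0.58 and 0.22 on 3 normoxia arrays. On that 4 weeks A array the running median at the probe of Kcnmb1 was -2.55. Cacna1d lay between -0.63 and 0.50 on 6 constant hypoxia arrays and at 0.79 and 0.76 on the 2 normoxia arrays of 1 week.

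Genes with several probes showed how far a single ratio can be read. The probes of Atp6v1a correlated at r = 0.42 over 18 arrays and had the same sign on 12 of them. Both lay higher in constant hypoxia (0.12 and 0.29) than in normoxia (-0.35 and -0.089). On intermittent hypoxia 2 weeks B they had 0.96 and -0.092. The probes of Atp6v1b2 used in the tests correlated at r = -0.33 over 17 arrays and had the same sign on 8 of them. For 1 of them constant hypoxia lay above normoxia (0.21 against -0.19), and for the other it did not (0.35 against 0.40). Nor did it for a further probe outside the tests, with values on 8 arrays (-0.70 against -0.43). Atp1b1 had r = 0.041 between its probes over 15 arrays, with condition means in opposite order: -0.018 in constant hypoxia and -0.28 in normoxia for the probe outside the tests, and -0.33 and -0.046 for the one in them. Atp6v1c1 also had opposite orders, with 0.24 in constant hypoxia and 0.45 in normoxia for the probe outside the tests, and 0.26 and 0.18 for the one in them. Of the 3 probes of Atp2a2, the one in the tests had 0.055 in constant hypoxia and 0.083 in normoxia, and the other two had -0.085 and 0.42, and 0.23 and 0.16. These correlations over arrays are descriptions, since the probes share arrays, labelling and hybridisation.

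Other genes of tubular ion and water transport were read from a list of 68 (solute carriers, modulators and regulators), of which 15 were in the tests. None was called in any condition or duration comparison (limma, Benjamini-Hochberg). Before adjustment, 0 passed in constant hypoxia minus normoxia, beside 7.53% of features, and 1 in intermittent hypoxia minus normoxia, beside 4.12%. Their median difference from normoxia was -0.11 in constant hypoxia, with 4 of 15 positive, beside 43.1% of features. In intermittent hypoxia it was 0.071, with 10 of 15 positive, beside 53% of features. Against the median feature, 3 of 15 had a called ratio in constant hypoxia, all negative, near the share of all features (18.3% called, 13.2% called and negative). The 3 were Slc8a1, the sodium-calcium exchanger, at -1.28, Sgk1, a kinase induced by aldosterone, at -0.75, and Fxyd4, a small modulator of the sodium pump, at -0.38. Sgk1 was also called in normoxia at -0.79, beside 3.53% of features, and its ratio was negative on 17 of 18 arrays. Slc8a1 was negative on all 18 arrays and reached -3.68 on constant hypoxia 4 weeks A. The running median along the probe numbers reached -3.06 on that array, and the ratios of these listed genes are not given here with it removed.

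Of the cell type markers listed, none of the principal cells of the collecting duct was measured, and of the 5 for intercalated cells 2 were (Atp6v0a4 and Slc4a1). Their mean ratio ran from -0.36 to 0.10 in constant hypoxia, from -0.37 to 0.074 in intermittent hypoxia and from -0.46 to 0.037 in normoxia. The 2 measured proximal tubule markers of 5 listed ran from -0.26 to 0.38, from -0.46 to 0.020 and from -0.44 to 0.27 in the same order. As with any ratio from whole kidney, fewer cells of a type and less RNA per cell cannot be told apart.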

How the data were processed

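Kidney cDNA of 18 pairs of mice was measured on 18 cDNA arrays with both dyes, in 9 groups of 2 arrays. The authors deposited 1 value per probe and array, read here as a log2 ratio of the channels. The scale, scanner, background correction, normalization, direction of the ratio and genome build have no statement in the sources used here. The log2 base was inferred from the deposited values as ratios of whole numbers, and 23.7% to 79.7% of sampled values per array fitted base 2, while base e fitted 2.0% or less and base 10 fitted 1.67% or less. Each array was centred on its median. Probes with a value on at least 15 arrays and in every group were kept (6518 probes), those of 1 symbol were averaged, and the 5751 features went into a model of 9 group means in limma 3.58.1 (R 4.3.3) with eBayes, two-sided, with Benjamini-Hochberg adjustment over all features and a threshold of 0.05. Gene symbols came from the platform annotation, and updating them through 9496 matched gene identifiers changed 0. The fit was tested on simulated data. Alternatives were the values as deposited, the running median over neighbouring probe numbers removed, other filters, probes kept apart, unmoderated tests, a replicate block, equal spread, and arrays left out. Genes named were those called in any comparison, the 3 with the smallest p in each direction of the main comparisons and those listed by role, and others are named by their values. The members and lists were chosen with earlier results of these data known. Members on fewer than 6 arrays were left out.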

Additional observations from a re-analysis of the deposited data

Results flagged for a closer look

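Within each condition, the 6 arrays of a gene were examined for 1 value far from the other 5, and 9 of 63 such groups (14.3%) had one. Chance gives about 1 in 20 where the values of a group come from 1 normal distribution. Here each group mixed durations and arrays of unlike spread, and genes share arrays. Over all features 8.93% of such groups had one. Of the 9, 5 fell on intermittent hypoxia 2 weeks B, the array with the widest spread, which also held 31.1% of those over all features. There Atp6v0b had -1.66, against -0.21 to 0.34 on the other 5 intermittent hypoxia arrays, and Atp2a2 had -1.53, against -0.22 to 0.16. Atp1b3 had -0.85, against -0.23 to 0.095, and Atp6v0d1 had -0.60, against -0.20 to -0.016. Atp6v1a had 0.43, against -0.23 to 0.0013. That value is the mean of 2 probes that disagreed on this array, at 0.96 and -0.092.

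On constant hypoxia 4 weeks A, Kcnq1 had -2.55, against -0.81 to -0.055 on the other 5 constant hypoxia arrays, and Cacna2d3 had -2.06, against -0.32 to 0.27. Less the running median, these values were 0.045 for Kcnq1 and -0.058 for Cacna2d3, while Atp6v0b and Atp2a2 on intermittent hypoxia 2 weeks B were still at -2.15 and -1.42, Atp1b3 and Atp6v0d1 there were at -0.18 and -0.35, and Atp6v1a at 0.33. Kcnk1 had 1.53 on intermittent hypoxia 4 weeks B, against -0.81 to -0.30 on the other 5. Atp6v1a had -0.34 on constant hypoxia 2 weeks B, against 0.22 to 0.54. Kcnk1 and Atp6v0b are named here after their values were seen.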

How the results depend on the processing

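Centring decided most. On the values as deposited, 20 genes were called in constant hypoxia minus normoxia, 20 in intermittent minus constant hypoxia, 15 and 19 in constant hypoxia minus normoxia at 1 and 4 weeks, 21 for the ratio in constant hypoxia and 0 in intermittent hypoxia, beside 96.9%, 93.7%, 77.7%, 91.2%, 98.9% and 4.07% of all features in this order. The median differences for constant hypoxia minus normoxia and intermittent minus constant hypoxia were then -0.63 and 0.62 for V-ATPase subunits, -0.88 and 0.68 for pumps, and -0.90 and 0.93 for channels. Signs turned as for nearly all features, of which 0.0522% were positive in constant hypoxia minus normoxia and 99.9% in intermittent minus constant hypoxia. They turned in constant hypoxia minus normoxia for Atp1b3 (-0.77), Atp6v0a2 (-0.69), Atp6v0a4 (-0.49), Atp6v0d1 (-0.69), Atp6v1a (-0.34), Atp6v1b2 (-0.58), Atp6v1c1 (-0.71), Atp6v1d (-0.50), Atp6v1g1 (-0.53) and Clcn3 (-0.51). They turned in intermittent minus constant hypoxia for Atp1b3 (0.53), Atp6v0a2 (0.52), Atp6v0a4 (0.54), Atp6v0d1 (0.63), Atp6v1a (0.51), Atp6v1b2 (0.62), Atp6v1g1 (0.46) and Clcn3 (0.49). For the ratio in constant hypoxia they turned for Atp1b3 (-0.78), Atp2a2 (-0.73), Atp6v0a2 (-0.42), Atp6v1a (-0.58), Atp6v1b2 (-0.49), Atp6v1c1 (-0.55), Atp6v1d (-0.67), Atp6v1g1 (-0.57), Clcn3 (-0.39) and Kcnn2 (-0.62). With the running median removed the ratio calls were 0, 2 and 3 in constant hypoxia, intermittent hypoxia and normoxia, beside 8.35% of features in intermittent hypoxia and 4.56% in normoxia. Kcnd3 then came to 0.013 in constant hypoxia, and the channel medians were 0.077 and -0.061 for the same pair of differences. Genes with 6 or more arrays gave 8 ratio calls in constant hypoxia, and genes on all 18 arrays gave 0 in intermittent hypoxia and a pump median of -0.19 for intermittent minus constant hypoxia. Unmoderated tests gave 2 ratio calls in constant hypoxia and 1 in normoxia. These counts have no share of all features beside them and are not read as results about these genes. The same holds for the counts for genes with 6 or more arrays, genes on all 18 arrays and the replicate block below. Without the 2 arrays with disagreeing labels there were 4 calls in intermittent hypoxia minus normoxia at 2 weeks (16.4% of features), 7 and 4 ratio calls in intermittent hypoxia and normoxia (24.9% and 12.6%), and a channel median of -0.0094 for intermittent minus constant hypoxia. Without the 2 arrays of widest spread, chosen after seeing the data, these were 0 and 4 ratio calls (5.9% and 12.6%) and 0.043. With single arrays left out, calls ranged from 0 to 3 in constant hypoxia minus normoxia (also at 4 weeks), in intermittent minus constant hypoxia, in 4 weeks minus 1 week in constant hypoxia and in its difference from normoxia, each highest without constant hypoxia 4 weeks B. They ranged from 0 to 4 in intermittent hypoxia minus normoxia at 2 weeks, and from 0 to 6, 0 to 4 and 0 to 3 for the ratios in constant hypoxia, intermittent hypoxia and normoxia. The share of all features called also moved between these fits, so their counts are not read as results about these genes either. Medians for intermittent minus constant hypoxia ranged from -0.21 to 0.027 for pumps and from 0.0076 to 0.32 for channels. The letters A and B share only a name: A minus B differences correlated between groups from -0.37 to 0.44, over 0.1 in 8 of 36 pairs, and the replicate block gave 0 ratio calls in intermittent hypoxia. The causes were not tested. Probes kept apart and equal spread changed no count of calls.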
